A study of Mus musculus with 6 samples.

Results

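The miR-15, miR-16, miR-195 and miR-497 family was examined as 5 mature miRNAs, miR-15a-5p, miR-15b-5p, miR-16-5p, miR-195a-5p and miR-497a-5p. They were chosen by their miRBase accessions (MIMAT0000526, MIMAT0000124, MIMAT0000527, MIMAT0000225 and MIMAT0003453), without use of any measured value. Earlier results of these data were known at the time of this choice. All 5 were found among the 707 miRNAs of the count table, and all 5 passed the filter on low counts. The data were miRNA-seq counts from white adipose tissue (WAT) of male ApoE-deficient mice, with 3 control libraries and 3 libraries from mice kept under chronic intermittent hypoxia (CIH) for 8 weeks. In CIH the oxygen was lowered to about 6% and brought back to 21% in cycles, each phase taking 60 s, which models obstructive sleep apnea. Both groups lacked apolipoprotein E, a carrier protein needed to take lipoproteins up from the circulation, and no wild-type mice were sequenced, so the comparison concerns CIH on this background alone. The fat depot and the age of the mice are not given in the sources used here. The labels number the libraries as replicates without saying that each came from its own mouse, so the p-values measure the spread between these libraries.

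MiRNAs guide Argonaute proteins to messenger RNAs, mainly through the seed, bases 2 to 8 of the mature strand, and lower the translation and stability of these targets. The members of this family share one seed and are best known as brakes on cell division and survival. Their established targets include cyclins of the G1 phase, the checkpoint kinase Chek1 and the anti-apoptotic gene Bcl2. Loss of the miR-15a and miR-16-1 locus is a classic lesion of chronic lymphocytic leukemia, and the family limits the division of heart muscle cells after birth.

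The mature sequences are shown because the shared seed defines the family and the remaining bases tell the members apart. They are from RefSeq on GRCm38.p6, 5′ to 3′, with the seed in capitals.
miR-15a-5p: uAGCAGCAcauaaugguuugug
miR-15b-5p: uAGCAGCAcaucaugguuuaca
miR-16-5p: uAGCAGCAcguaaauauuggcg
miR-195a-5p: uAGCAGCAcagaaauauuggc
miR-497a-5p: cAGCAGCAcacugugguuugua
With positions counted from 1 at the 5′ end, miR-16-5p and miR-195a-5p were the most alike pair. They had the same base at 19 of 21 positions and differed by G10A and U11G, and miR-195a-5p was 1 base shorter. miR-15a-5p and miR-15b-5p were the same at 18 of 22 positions and differed by A12C, G20A, U21C and G22A. miR-16-5p and miR-497a-5p, at 11 of 22, were the least alike. The RefSeq table held 10 mature names with these bases 2 to 8, of which 5 were outside the family studied here, among them miR-322-5p and miR-195b. The sequence of miR-195b (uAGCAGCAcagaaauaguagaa) is the same as that of miR-195a-5p at 18 of 21 positions, up to and including base 16. The count table lists accessions without names, so the other miRNAs with this seed were not analysed here. No other row of the table had the same counts as a member in all 6 libraries.

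The members come from 6 hairpins in 3 close pairs, placed here on GRCm38 with GENCODE release M21. Mir15a (chr14:61632027-61632110, minus strand) and Mir16-1 (chr14:61631880-61631972, minus strand) lie 54 bases apart in the noncoding gene Dleu2, Mir15a in an intron and Mir16-1 overlapping an annotated exon. Mir15b (chr3:69009772-69009835, plus strand) and Mir16-2 (chr3:69009902-69009996, plus strand) lie 66 bases apart in an intron of Smc4, which encodes a condensin subunit. Mir497 (chr11:70234717-70234800, plus strand) and Mir195a (chr11:70235042-70235135, plus strand) lie 241 bases apart, and Mir497 overlaps the hairpin Mir497b on the opposite strand. The 2 hairpins that make miR-16-5p are shown with the mature strand in capitals, because that strand is the same in both and its reads cannot be assigned to a locus.
Mir16-1: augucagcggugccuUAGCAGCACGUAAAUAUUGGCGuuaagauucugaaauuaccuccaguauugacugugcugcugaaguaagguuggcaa
Mir16-2: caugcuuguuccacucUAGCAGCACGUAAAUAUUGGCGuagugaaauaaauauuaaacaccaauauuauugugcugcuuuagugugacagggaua
The opposite arms differ between these hairpins, but their rows could not be identified by accession, and they were not analysed here.

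The libraries held 636963 to 4783768 counts, and control 2 was the deepest. Across the 633 miRNAs tested, control 3 correlated at 0.958 to 0.974 with the 3 CIH libraries and at 0.595 and 0.661 with control 1 and control 2, so the fold changes, the family share and the differences between log2 ratios below are also given without it. The miRNAs behind these correlations are not independent of each other. The 5 members had between 38 and 26548 counts in a library, and no member had a count of 0. The label of the tissue could not be checked against marker miRNAs, for the same lack of names. In whole tissue, fewer cells of a type and less RNA per cell cannot be told apart.

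miR-16-5p was the most abundant member and miR-195a-5p the second in 6 of 6 libraries. Levels are given as CPM, counts scaled to a common library size with TMM factors, which correct the library totals for differences in composition. A read covers a whole mature miRNA of 21 or 22 bases, so no correction for length was made, and capture during ligation can differ between sequences. Over the 6 libraries the median level was 2162 TMM-normalized CPM for miR-16-5p and 345 for miR-195a-5p. The medians were 119 for miR-15b-5p, 114 for miR-15a-5p and 112 for miR-497a-5p. The order of these last 3 changed between libraries. miR-15a-5p had more counts than miR-497a-5p in 3 of 6 libraries and more than miR-15b-5p in 2 of 6, and miR-15b-5p had more than miR-497a-5p in 4 of 6. Among all miRNAs of a library, miR-16-5p ranked between 20 and 61 and miR-195a-5p between 42 and 130. The other 3 ranked between 117 and 217.

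**Figure D1:**
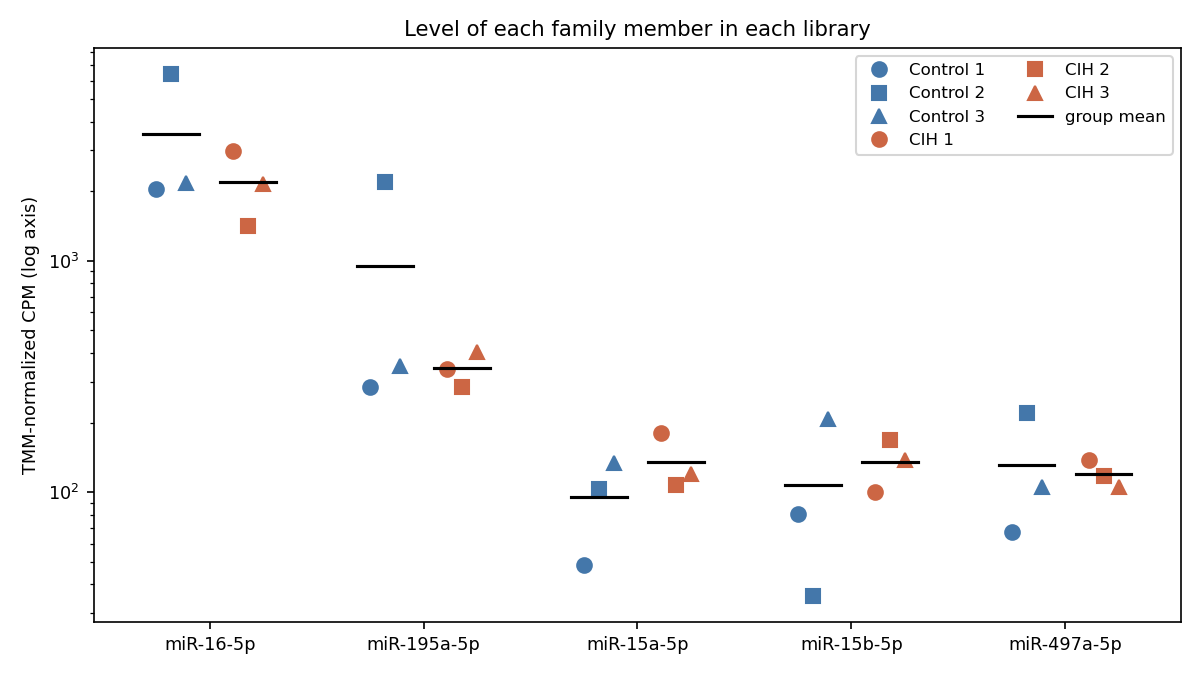
Level of each member (vertical log axis, TMM-normalized CPM) in each control library (blue) and CIH library (orange), with symbols for the replicate number and a black line at the group mean. Control 2 stands above the other libraries for miR-16-5p, miR-195a-5p and miR-497a-5p and below them for miR-15b-5p.

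No member passed the test of a difference between the CIH and control groups. By edgeR's quasi-likelihood test over 633 miRNAs, 0 of 5 members had an adjusted p-value under 0.05, where the background was 0% of all miRNAs. An unadjusted p-value under 0.05, with or without a change of at least 1.5-fold, was reached by 0 of 5 members and by 2.53% of all miRNAs. DESeq2 called 0 of 5 members by the adjusted rule and 0 of 5 by the unadjusted rule with 1.5-fold, against 0% and 4.44% of the 585 miRNAs to which it gave a p-value. With limma voom these were 0 of 5 by both rules, against 0% and 11.8% of 633 miRNAs. The control and CIH libraries overlapped for each of the 5 members, and such an overlap was missing for 8.06% of the 633 miRNAs. The median log2 fold change (CIH against control) was -0.13 over the members and 0.07 over all miRNAs tested. With 3 libraries a group, the intervals of the members reached beyond 2-fold in at least one direction, so these values do not show that the levels were equal.

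miR-16-5p, encoded at both the Dleu2 and the Smc4 loci, had 2043, 6405 and 2170 TMM-normalized CPM in control libraries 1, 2 and 3. In CIH libraries 1, 2 and 3 it had 2991, 1408 and 2155. Control 2 was the highest and CIH 2 the lowest, and the other 4 libraries lay between 2043 and 2991. The group means were 3539 ± 2483 (SD, n = 3) without CIH and 2185 ± 792 (SD, n = 3) under CIH. The log2 fold change was -0.70 (standard error 0.74, 95% interval -2.47 to 1.07, adjusted p = 0.882 by edgeR's quasi-likelihood test). Without control 2 the control mean was 2106 and the log2 fold change was 0.11, with the opposite sign (adjusted p = 0.968, same test). Without control 3 it was -0.97 (adjusted p = 0.339, same test).

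miR-195a-5p, from the chromosome 11 pair, showed the same arrangement with a larger gap. It had 286, 2202 and 349.7 TMM-normalized CPM in the control libraries, against 341, 285 and 402 under CIH. Control 2 was 5.47-fold above the next library, and the other 5 libraries lay between 285 and 402. The group means were 946 ± 1088 (SD, n = 3) and 343 ± 58.6 (SD, n = 3) in the control and CIH groups. The log2 fold change of -1.47 (standard error 0.94, 95% interval -3.71 to 0.78, adjusted p = 0.882 by edgeR's quasi-likelihood test) was the most negative of the 5. Of all miRNAs tested, 14.5% had a lower value. Without control 2 it was 0.18 (95% interval -1.04 to 1.40), and without control 3 it was -1.88 (adjusted p = 0.164, same test). It was -2.27 with upper-quartile factors and -0.87 with limma voom.

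miR-497a-5p, which is encoded next to miR-195a-5p, had 67.4, 221 and 105.5 TMM-normalized CPM in the control libraries, against 138, 118 and 105.2 under CIH. Control 2 was again the highest library and control 1 the lowest. The group means were 131 ± 80.0 (SD, n = 3) and 120.4 ± 16.6 (SD, n = 3). The log2 fold change was -0.13 (standard error 0.63, 95% interval -1.62 to 1.37, adjusted p = 0.942 by edgeR's quasi-likelihood test), and it was 0.54 without control 2, -0.28 without control 3 and 0.11 with library totals in place of TMM factors.

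miR-15a-5p, encoded beside miR-16-1 in Dleu2, had 48.3, 103 and 134 TMM-normalized CPM in the control libraries, against 179.9, 107 and 120.4 under CIH. Control 1 was the lowest and CIH 1 the highest. The group means were 95.3 ± 43.5 (SD, n = 3) and 136 ± 38.8 (SD, n = 3). The log2 fold change was 0.51 (standard error 0.61, 95% interval -0.95 to 1.96, adjusted p = 0.882 by edgeR's quasi-likelihood test).

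miR-15b-5p, encoded beside miR-16-2 in Smc4, had 80.2, 35.7 and 206 TMM-normalized CPM in the control libraries, against 100.4, 169 and 138 under CIH. Here control 2 was the lowest of the 6 libraries and control 3 the highest, with a 5.78-fold range inside the control group. The group means were 107 ± 88.6 (SD, n = 3) and 136 ± 34.1 (SD, n = 3). The log2 fold change was 0.34 (standard error 0.76, 95% interval -1.47 to 2.14, adjusted p = 0.889 by edgeR's quasi-likelihood test). Without control 2 it was -0.01, and with limma voom it was 0.74. Counting error was small beside this range. Scaled by library totals, the level was 30.9 CPM in control 2 (exact 95% binomial interval 26.2 to 36.3) and 289 CPM in control 3 (253 to 329). Such intervals cover counting error alone.

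The upper-quartile scaling turned the sign of miR-15a-5p (-0.04) and miR-15b-5p (-0.05), while it moved the median of all miRNAs to -0.52. Relative to that median they were 0.48 and 0.46 higher, and relative to the median of its own fit each member kept its side under TMM, RLE and upper-quartile factors, with library totals, and with library sizes that left out the 5 most abundant miRNAs. miR-15a-5p and miR-15b-5p lay above the median of all miRNAs in these 5 scalings, and miR-16-5p, miR-195a-5p and miR-497a-5p lay below it. A change of scaling moves all miRNAs of a library together, so the sides could hardly differ between these scalings. Without control 2, the value relative to the median was -0.30 for miR-15b-5p and 0.25 for miR-497a-5p. With 10 counts required of each library it was 0.10 for miR-497a-5p. The other members kept their side in these fits.

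**Figure D2:**
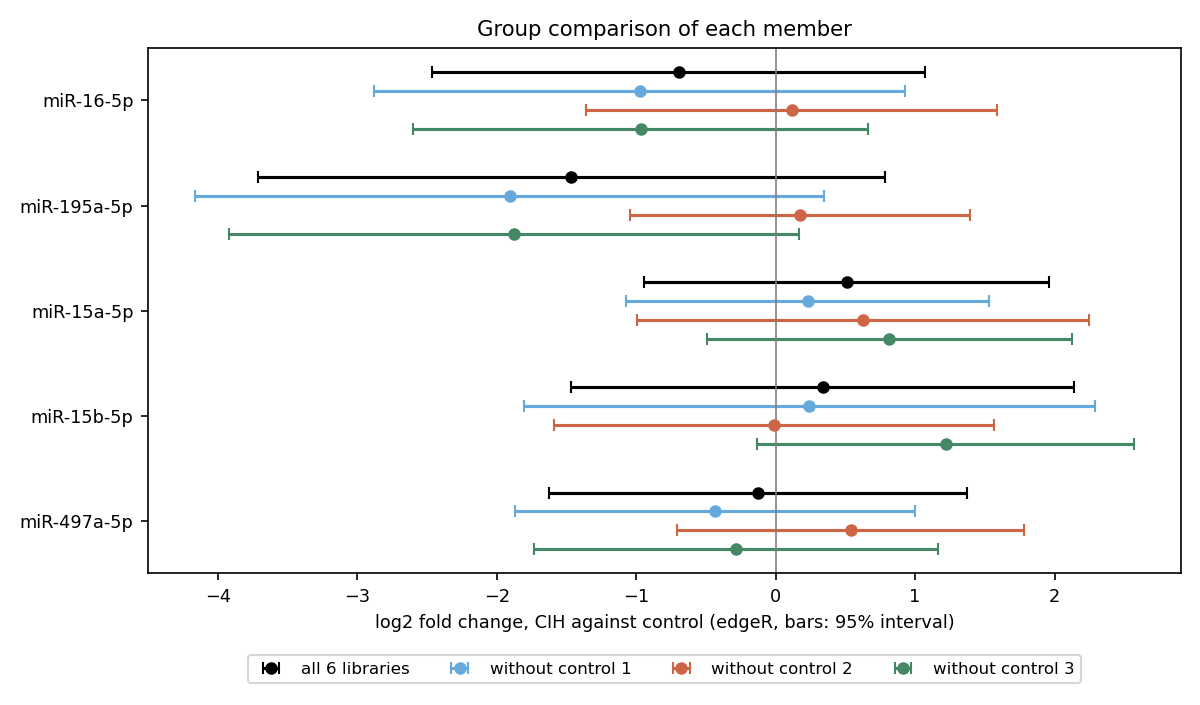
Log2 fold change of each member (horizontal axis, CIH against control, edgeR) with its 95% interval, for all 6 libraries (black) and without control 1 (blue), control 2 (orange) or control 3 (green). All 20 intervals include 0, and without control 2 the estimates of miR-16-5p and miR-195a-5p move from -0.70 and -1.47 to 0.11 and 0.18.

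Without control 3, no interval of a member excluded 0 and no member was called, at a background of 36.6% of 614 miRNAs by an unadjusted p-value under 0.05 with at least 1.5-fold and 19.2% by an adjusted p-value under 0.05. The log2 fold change was then 1.22 for miR-15b-5p (95% interval -0.13 to 2.57, adjusted p = 0.17) and 0.82 for miR-15a-5p (adjusted p = 0.318), both by edgeR's quasi-likelihood test. These 2 members then had CIH libraries that were all above control 1 and control 2, a separation that 32.4% of all miRNAs showed in the same direction. Control 3 itself had 134 TMM-normalized CPM of miR-15a-5p and 206 of miR-15b-5p, within or above the range of the CIH libraries.

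With all 6 libraries, the coefficient of variation was larger in the control group than in the CIH group for 5 of 5 members, without a test. The coefficient of variation in the control libraries was 115% for miR-195a-5p, 82.4% for miR-15b-5p, 70.1% for miR-16-5p, 60.9% for miR-497a-5p and 45.7% for miR-15a-5p. In the CIH libraries it lay between 13.8% for miR-497a-5p and 36.3% for miR-16-5p. The medians over the members were 70.1% and 25.2%. Over the 238 miRNAs that reached 10 counts in each of the libraries they were 61.3% and 26.1%, and it was larger in the control group for 202 of these 238. Without control 2 it was larger in the control group for 3 of 5 members and 167 of 238 miRNAs. In the 2 control libraries left, it fell to 4.24% for miR-16-5p and 14.1% for miR-195a-5p. These lay below the 36.3% and 17.1% of the 3 CIH libraries, and the medians over the members were 31.1% and 25.2%. The coefficients above were taken on TMM-normalized CPM. Scaled by library totals, without control 2, the order was the opposite, 62.5% against 28.1% for miR-16-5p and 70.2% against 40.1% for miR-195a-5p. With TMM factors and without control 1, the coefficient of variation was larger in the control group for 4 of 5 members. The exception was miR-15a-5p, with 18.5% against 28.6%, and by library totals these were 50.2% and 14.1%.

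The shares of the members within the family do not depend on the scaling between libraries. The percentage of all counts that the family takes does, because it amounts to scaling by library totals. By such totals the family had 1453 CPM in control 1 and 4149 in control 3, against 2526 and 2966 TMM-normalized CPM. Its 5 members took 0.145%, 0.777% and 0.415% of the counts in control libraries 1, 2 and 3 and 0.296%, 0.262% and 0.423% in CIH libraries 1, 2 and 3. The means were 0.446% ± 0.317 (SD, n = 3) for the control and 0.327% ± 0.0848 (SD, n = 3) for the CIH libraries. The difference, CIH minus control, was -0.119 percentage points, and it was 0.0467 without control 2, -0.269 without control 1 and -0.134 without control 3. miR-16-5p made up most of the family in every library, between 67.5% in CIH 2 and 80.9% in control 1. miR-195a-5p made up 24.6% of the family in control 2 and between 9.08% and 13.8% in the other 5 libraries. miR-15b-5p made up 0.398% of the family in control 2 and between 2.68% and 8.08% elsewhere. miR-15a-5p made up 1.91%, 1.15% and 4.53% in the control libraries, against 4.80%, 5.13% and 4.12% under CIH, so that control 1 and control 2 were low and control 3 lay among the CIH libraries. The share of miR-497a-5p was 2.67%, 2.46% and 3.56% in the control libraries, against 3.68%, 5.64% and 3.60% under CIH. These did not overlap, but the closest libraries, control 3 and CIH 3, had exact 95% binomial intervals of 2.95% to 4.25% and 2.93% to 4.38%. It was the only one of the 5 shares without overlap, and no background was worked out for shares. By level in TMM-normalized CPM, a different measure, 8.06% of the 633 miRNAs showed no overlap in either direction, and miR-497a-5p did overlap. The difference in the share of miR-16-5p, -1.49 percentage points with all libraries, was 1.38 without control 1 and 1.61 without CIH 2, and that in the share of miR-195a-5p turned from -3.72 to 0.612 without control 2.

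**Figure D3:**
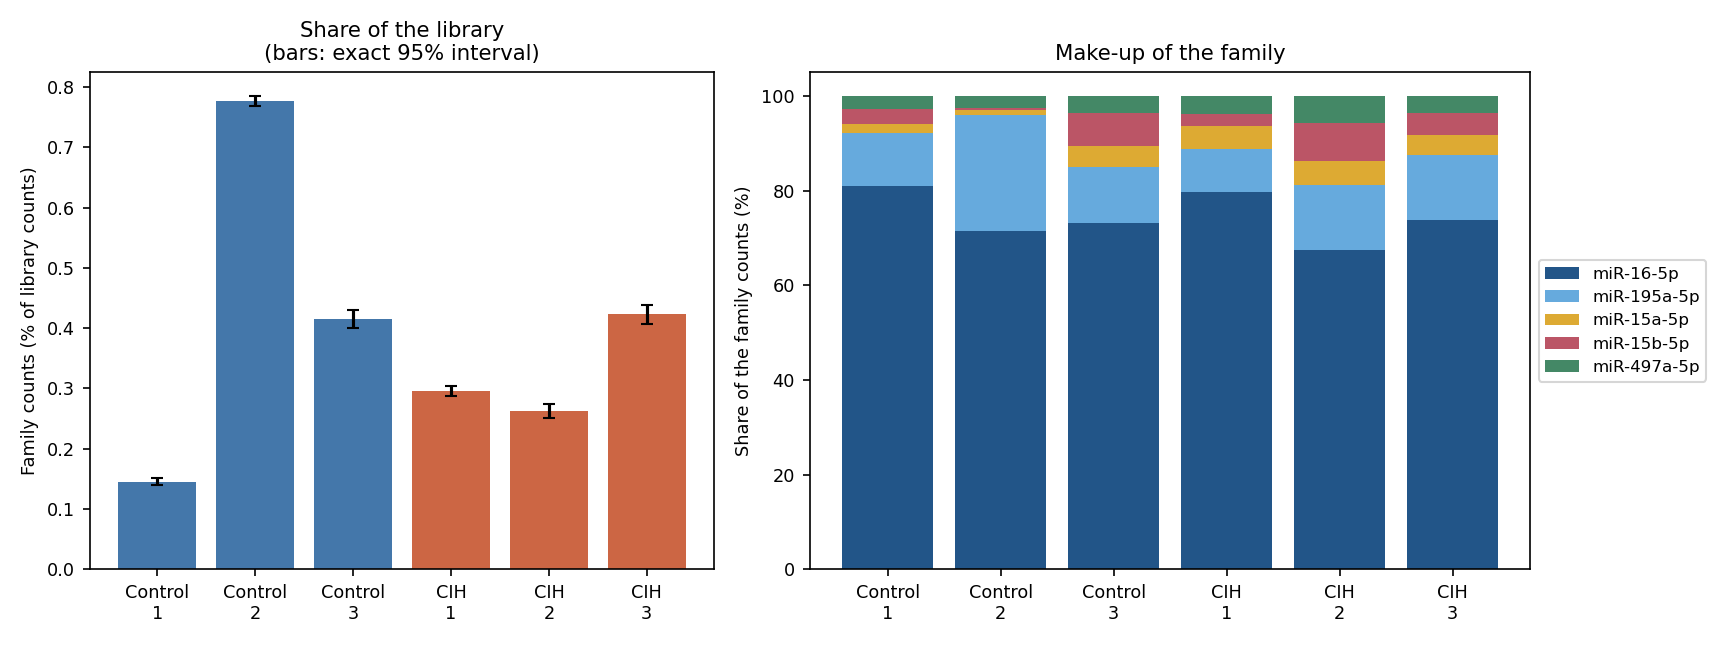
Left, counts of the 5 members as a percentage of all counts in each library, with exact 95% binomial intervals. Right, the share of each member in the counts of the family in each library, where miR-195a-5p takes 24.6% in control 2 and 13.8% or less in the other libraries.

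The ratios between members within a library were compared between the groups for all 10 pairs. This addresses whether members of one hairpin pair, or with the same seed, kept their proportion. No pair passed a two-sided exact permutation test, in which 3 libraries against 3 cannot give a p-value under 0.1. The lowest raw p-value was 0.2, for miR-16-5p to miR-497a-5p and for miR-195a-5p to miR-497a-5p, and both had an adjusted p of 0.6 over the 10 pairs by the exact permutation test. miR-195a-5p exceeded its neighbour miR-497a-5p by 4.19, 9.95 and 3.30-fold in the control libraries, against 2.46, 2.41 and 3.80-fold under CIH. The difference of the mean log2 ratios was -0.87, and CIH 3 lay inside the range of the control libraries. It was -0.40 without control 2 and -1.19 without control 3.

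Over all libraries, the ratio of miR-15b-5p to miR-16-5p, which share the Smc4 locus, varied more than the ratio of miR-15a-5p to miR-16-5p. The log2 ratio of miR-15b-5p to miR-16-5p ranged over 4.42 units, from -7.48 in control 2 to -3.05 in CIH 2. Most of this came from control 2. Leaving it out, this ratio lay between -4.89 and -3.05, and that of miR-15a-5p to miR-16-5p between -5.36 and -3.70, a similar spread. The difference between the groups was 1.21 (exact permutation p = 0.5, adjusted p = 0.714), and it was 0.05 without control 2 and 2.10 without control 3. The log2 ratio of miR-15a-5p to miR-16-5p was -5.36, -5.95 and -4.00 in the control libraries, against -4.05, -3.70 and -4.15 under CIH. Control 1 and control 2 had the lowest ratios and control 3 lay among the CIH libraries. The difference between the groups was 1.14 (exact permutation p = 0.3, adjusted p = 0.6). It was 0.72 without control 2 and 1.69 without control 3. The ratio of miR-16-5p to miR-195a-5p, the pair most alike in sequence, lay between 2.91 in control 2 and 8.77 in CIH 1.

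**Figure D4:**
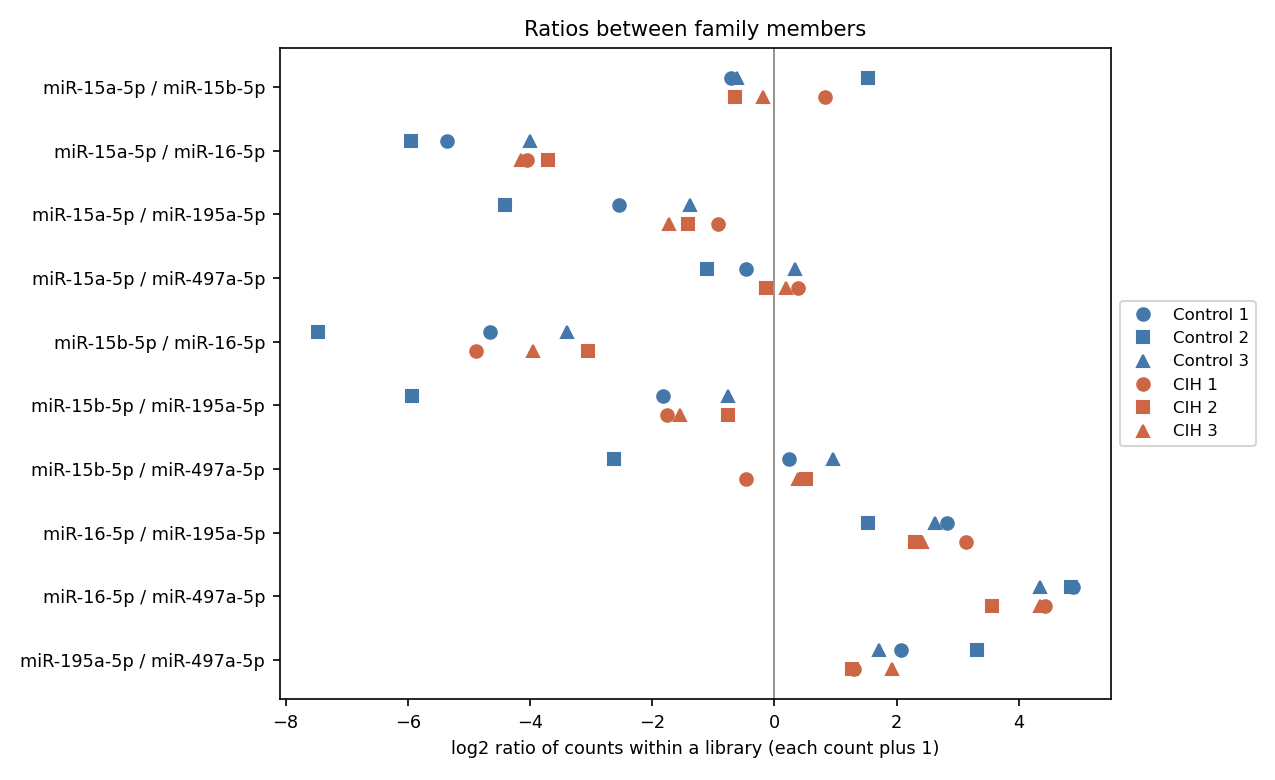
Log2 ratio of the counts of 2 members within a library (horizontal axis, 1 added to each count) for the 10 pairs, in control libraries (blue) and CIH libraries (orange). Control 2 is at one end of the control group in 9 of the 10 pairs, and no pair has groups that do not overlap. Another control library is also at an end in most of the pairs, and the pairs share members. This count alone therefore does not set control 2 apart.

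With all 6 libraries, the members did not follow one pattern. Likeness was measured as the root mean square difference of log2 CPM over the 6 libraries, after centring each miRNA on its own mean, among the same 238 miRNAs. It is a description and was not tested. miR-16-5p and miR-497a-5p were the closest members, with a difference of 0.44, and miR-16-5p and miR-195a-5p followed with 0.50. miR-195a-5p and miR-497a-5p, from one locus, differed by 0.68. miR-15b-5p and miR-195a-5p were the farthest apart, with 1.76, and miR-15b-5p and miR-16-5p, which share a locus, differed by 1.44. Much of both came from control 2. The log2 ratio of miR-15b-5p to miR-195a-5p was -5.94 in control 2 and between -1.82 and -0.76 in the other libraries. These differences were not worked out without control 2. From miR-16-5p, the median difference to the 237 other miRNAs was 0.83, so that miR-15b-5p, in place 196, was less like it than most of the table. miR-497a-5p was in place 20 from miR-16-5p, and miR-195a-5p was in place 34. Each member had miRNAs outside the family that were closer to it than any other member, with nearest differences between 0.16 and 0.26. Nearly all of the 237 miRNAs compared were outside the family, so a nearest one there is favoured by number alone.

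Control 2 was the highest or the lowest library for each member but miR-15a-5p. Against the mean of the other 5 libraries it was 2.73 log2 units higher for miR-195a-5p, 1.61 higher for miR-16-5p and 1.08 higher for miR-497a-5p. The difference was -0.07 for miR-15a-5p and -1.84 for miR-15b-5p. The median over the 238 miRNAs was 0.41 higher. Of these miRNAs, 94.5% lay below miR-195a-5p in control 2, 81.9% below miR-16-5p, 72.3% below miR-497a-5p and 12.2% below miR-15b-5p. Other control libraries held places as far out. In control 3, 95.4% lay below miR-15b-5p, and in control 1, 12.2% lay below miR-15a-5p. Control 2 also had the largest number of counts, and the part of depth in these values was not tested.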

How the data were processed

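Small RNA libraries of WAT from ApoE-deficient control and CIH mice were sequenced, and the authors deposited raw read counts per mature miRNA, without normalization. The trimming, the aligner, the miRNA database and the treatment of reads with several matches are not given in the sources used here, and the last could move reads between members that differ by few bases. Groups came from the labels. The members, lists and tests were chosen with earlier results of these data known. The 633 miRNAs with at least 10 summed counts were tested with edgeR 4.0.16 (TMM, quasi-likelihood, group as the only term, Benjamini-Hochberg adjustment) in R 4.3.3. Alternatives were DESeq2 1.42.0, limma 3.58.1 with voom, other scalings, filters, a replicate block and leaving out each library. Log2 CPM used a prior count of 2 and ratios a pseudocount of 1, in Python 3.11.15 with scipy 1.17.1. The miRNAs named were to be the members, their opposite arms, other miRNAs with their seed, the 3 most alike of each member, miR-103-3p, miR-107-3p and cell type markers. Because no table used here pairs accessions with names, only the members are named and no marker list was run.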

Additional observations from a re-analysis of the deposited data

How the results depend on the processing

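Over 15 alternatives for each of the 5 members, 65 of the 75 log2 fold changes kept their sign, 10 turned, and 0 had an adjusted p-value under 0.05, the lowest being 0.164. The number of members called was 0 in every alternative run, by the adjusted p-value and by an unadjusted p-value under 0.05 with at least 1.5-fold. With upper-quartile factors miR-15a-5p was -0.037, miR-15b-5p -0.052 and miR-195a-5p -2.27, and the last was -0.87 with limma voom. The fold change of miR-497a-5p was 0.11 with library totals, 0.10 with library sizes without the 5 most abundant miRNAs and 0.049 when 10 counts were required of each library. With each library left out in turn, log2 fold changes ran from 0.23 to 0.82 for miR-15a-5p, -0.011 to 1.22 for miR-15b-5p, -0.97 to 0.11 for miR-16-5p, -1.91 to 0.18 for miR-195a-5p and -0.43 to 0.54 for miR-497a-5p. Signs turned without control 2 for the last 4 of these. The cause was not tested.

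Of 80 alternatives for the ratios, 6 turned the sign, and all 6 left out a library (control 2 for 4 pairs, and CIH 2 or CIH 3 for miR-15a-5p to miR-15b-5p). The differences ran from -0.49 to 0.66 for miR-15a-5p to miR-15b-5p, -0.060 to 2.53 for miR-15b-5p to miR-195a-5p, -0.46 to 1.34 for miR-15b-5p to miR-497a-5p and -0.11 to 0.53 for miR-16-5p to miR-195a-5p. The differences in the shares moved by less than 1 pooled SD, a spread that includes control 2, but some turned sign. With a library left out, the family share differed by -0.269 to 0.0467 percentage points (the latter without control 2), and by -0.279 out of totals without the 5 most abundant miRNAs outside the family, against -0.119. The 3 miRNAs most like each member were the same 3 with a prior count of 0.5 or library totals. Neither setting changes the difference between 2 miRNAs within a library by much, so this could hardly come out otherwise. Likeness was not worked out with a library left out.

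Over all miRNAs, 16 met the unadjusted rule with the original settings, against 26 with DESeq2, 75 with limma voom, 39 with upper-quartile factors and between 1 (without CIH 3) and 225 (without control 3) with a library left out. The number with an adjusted p-value under 0.05 ran from 0 to 118 in those fits, the latter without control 3.

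Replicate numbers 1 to 3 occur in both groups. Deviations from the group mean correlated at 0.353, -0.116 and 0.0195 between libraries of one number, too few values to settle pairing. A replicate block in the fit left 3 miRNAs by the unadjusted rule in place of 16 and 0 members, and the log2 fold changes were 0.037 for miR-497a-5p, -0.74 for miR-195a-5p (against -1.47) and 0.63 for miR-15b-5p (against 0.34).

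The shares of the hairpin arms, the opposite arms and the other miRNAs with the same seed were not run, because their rows could not be named. Counts of 38 to 229 in most libraries limit the precision of miR-15a-5p, miR-15b-5p and miR-497a-5p.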
